A study of Drosophila melanogaster with 2 samples.

Results

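In embryos, 463 of the 3898 regions called over control with a Deformed antibody lay in pericentromeric windows. These windows lie on chromosome arms 2L and 3L and on chromosome X. The 463 regions were packed 2.78 times as densely as the 1766 regions on the rest of these arms. They lay in tight groups and held more tags per base. Only 8 of the 463 had a false discovery rate below 100%. The windows are defined by position, though they were chosen with earlier results of these data known. A region belonged when its centre lay above 21000000 on 2L, 22500000 on 3L or 20390000 on X. This gave 144 regions on 2L, 206 on 3L and 113 on X. The chromatin came from whole wild-type Oregon R embryos aged 5 to 9.5 hours, which spans stages 9 to 12. Guinea pig anti-Deformed served for the Deformed library, and mock IgG of the same species for the control library. With 1 library per group there was no replicate error and no test, so all differences below are descriptions of 1 list of regions called from 1 pair of libraries. The embryos were not sorted, so tags from cells with and without Deformed are mixed.

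Deformed, a homeodomain protein of the Hox family, specifies the mandibular and maxillary segments of the head. The ends of the fly arms next to the centromeres carry the change from gene-rich euchromatin to heterochromatin, which is rich in transposon remnants and is packed by repressive proteins. A few genes work there: light (lt), which sorts cargo to lysosomes and pigment granules, and concertina (cta), a G protein subunit used in gastrulation, belong to 2L. On 3L they include RpL15, a ribosomal protein gene, and vtd, which encodes a cohesin subunit. On X they include su(f), needed for forming messenger RNA 3′ ends, and flamenco (lncRNA:flam), a locus whose transcripts are cut into piRNAs that silence transposons in the ovary. The build of the deposited positions is not given in the sources used here and the gene table at hand is of Release 6, so no region was assigned to any of these loci and no sequence is shown.

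After removal of duplicates the Deformed library held 15547495 tags and the control 12694075 tags. The Deformed tags amount to 13.0 tags per 100 bases of the 120 Mb effective genome. Regions come from the larger of 2 lists deposited by the authors, called at a p-value cutoff of 0.001, with the stricter list at 0.0001 as a check. Each region carries the authors' tag count, a fold at its summit over local background, a score (the p-value's negative log10, multiplied by 10), and a false discovery rate (FDR). All region values below are those of the authors' lists.

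The 3 windows each spanned about 2 Mb up to the end of the last region of the arm, and each was denser than the rest of its own arm. On 2L the window held 72.0 regions per Mb and the rest of the arm 34.7, a ratio of 2.07 (exact 95% interval 1.72 to 2.48). On 3L the window held 102.5 regions per Mb and the rest 32.0, a ratio of 3.21 (2.74 to 3.75). On X the window held 56.3 regions per Mb and the rest 15.6, a ratio of 3.61 (2.89 to 4.49). These intervals cover counting error only and treat regions as independent, which grouped regions are not. When regions less than 10 kb apart were counted as 1, the ratios came down to 1.28 on 2L, 1.29 on 3L and 1.30 on X. Merging takes more from a dense window than from a sparse arm by density alone, and how much of the drop that makes up was not tested. The density also differed from that of the 2 Mb of the same arm just outside each window. The windows held 144, 206 and 113 regions on 2L, 3L and X, and the neighbouring 2 Mb held 62, 56 and 24.

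**Figure D1:**
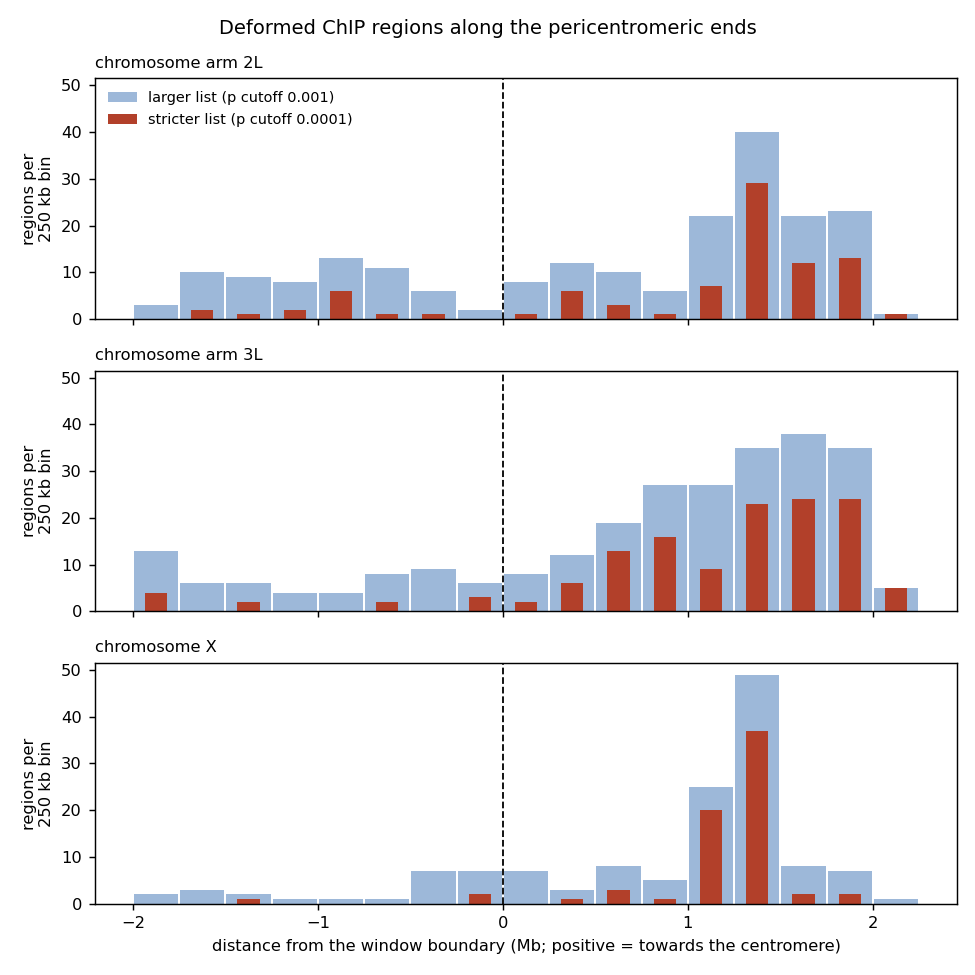
Regions per 250 kb bin (y axis) against distance from the window boundary in Mb (x axis, positive towards the centromere; the last bin is cut short by the arm's end). Wide bars are the larger list and narrow bars the stricter list. On 2L and X the tall bars begin 1 Mb inside the boundary, on 3L at 0.5 Mb, and on X they end after 2 bins of 25 and 49 regions.

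In the larger list the higher density began inside each boundary, and its shape differed between arms. The dense part was taken to begin at the first 250 kb bin that, like the next, held at least 2 times the median bin of the rest of the arm. On 2L that median was 8 regions, and successive bins inside the window held 8, 12, 10, 6, 22, 40, 22 and 23 regions. The dense part of 2L thus began at 22000001, 1000 kb inside the boundary, and the first 1000 kb held 36 regions, against 34.7 per Mb on the rest of the arm. From 22000001 on there were 107.9 per Mb. On 3L the median was 7, and the bins held 8, 12, 19, 27, 27, 35, 38 and 35 regions. This was a slope with no step, and the dense part began at 23000001, 500 kb inside the boundary, with 186 regions from there to the arm's end (123.3 per Mb), against 20 in the 500 kb before it. The start that the rule gives depends on the list: in the stricter one it was 1000 kb inside the boundary on 2L, 0 kb on 3L and 250 kb on X. With only the larger list's regions of a score of at least 40 it was 0 kb on 2L, 250 kb on 3L and 500 kb on X. The stricter list held only 6.80 regions per Mb on the rest of 3L and 3.53 on the rest of X, so few regions met the rule. Its start on 3L rests on bins of 2 and 6 regions, and that on X on bins of 1 and 3. From 1000 kb on, where the larger list gave the start on X, the stricter X bins held 20 and 37 regions.

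X had neither a slope nor a lasting step but 1 dense stretch with sparse flanks. The median bin of the rest of X held 3 regions, and the bins of the window held 7, 3, 8, 5, 25, 49, 8 and 7. The stretch from 21390001 to 21890000, 500 kb long, held 74 of the 113 window regions, 65.5%, and 12825 tags, 92.8% of the window's tags. Its density was 148 regions per Mb, against 23.0 on the distal side and 31.6 on the side of the centromere. Without the stretch the X window held 39 regions at 25.9 per Mb, a ratio of 1.66 to the rest of X (exact 95% interval 1.16 to 2.32). The limits of the stretch were chosen after its values were seen.

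Stretches with no region at all broke up all 3 windows. The longest on X ran 164.3 kb, from 21198666 to 21362980, and ended just before the dense stretch, while another of 126.7 kb, from 21839434 to 21966115, followed the last region of that stretch. On 2L gaps of 142.6 kb (21097434 to 21240062) and 130.6 kb (21415840 to 21546443) lay in the sparse first part. On 3L the 3 longest, of 99.5, 94.3 and 90.5 kb, all lay before 23000001. An empty stretch shows where the caller listed nothing, which is not the same as a lack of binding, since the share of each stretch to which short reads can be placed was not analysed here.

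Window regions held more tags per base than regions elsewhere on the same arms. The median over the 463 window regions was 14.9 tags per 100 bases (quartiles 11.3 and 21.8), against 10.9 (10.3 and 11.5) over the 1766 others. On 2L the medians were 13.0 in the window and 10.8 in the rest, on 3L 15.4 and 10.9, and on X 15.2 and 10.8. Above 13.0 tags per 100 bases were 273 window regions, 59.0%, and 130 of the others, 7.36%. This cutoff is the library's filtered tags spread over the effective genome. The regions elsewhere had a median of 10.9, below the cutoff, yet a median fold of 4.48 over local background. Whether the cutoff is on the same scale as the region counts was not tested. It serves only to compare window regions with the others, not to place either above or below a genomic average. At least 50 tags per 100 bases were found in 11 window regions and in 5 of the others.

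The difference in tags per base was seen in all 5 classes of length. Window regions were longer, with a median of 235 bases against 193, and 18 of them reached 1000 bases, against 9 of the others. Below 150 bases the median was 14.9 tags per 100 bases in the windows (n = 80) and 11.1 elsewhere (n = 242). From 150 up to 200 bases it was 11.5 (n = 96) and 10.7 (n = 723), and from 200 up to 300 bases 12.5 (n = 128) and 10.9 (n = 650). From 300 up to 500 bases it was 17.4 (n = 84) and 11.2 (n = 124), and from 500 bases upward 25.0 (n = 75) and 18.6 (n = 27). In absolute terms the difference was thus widest in the long regions and narrowest just below 200 bases.

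**Figure D2:**
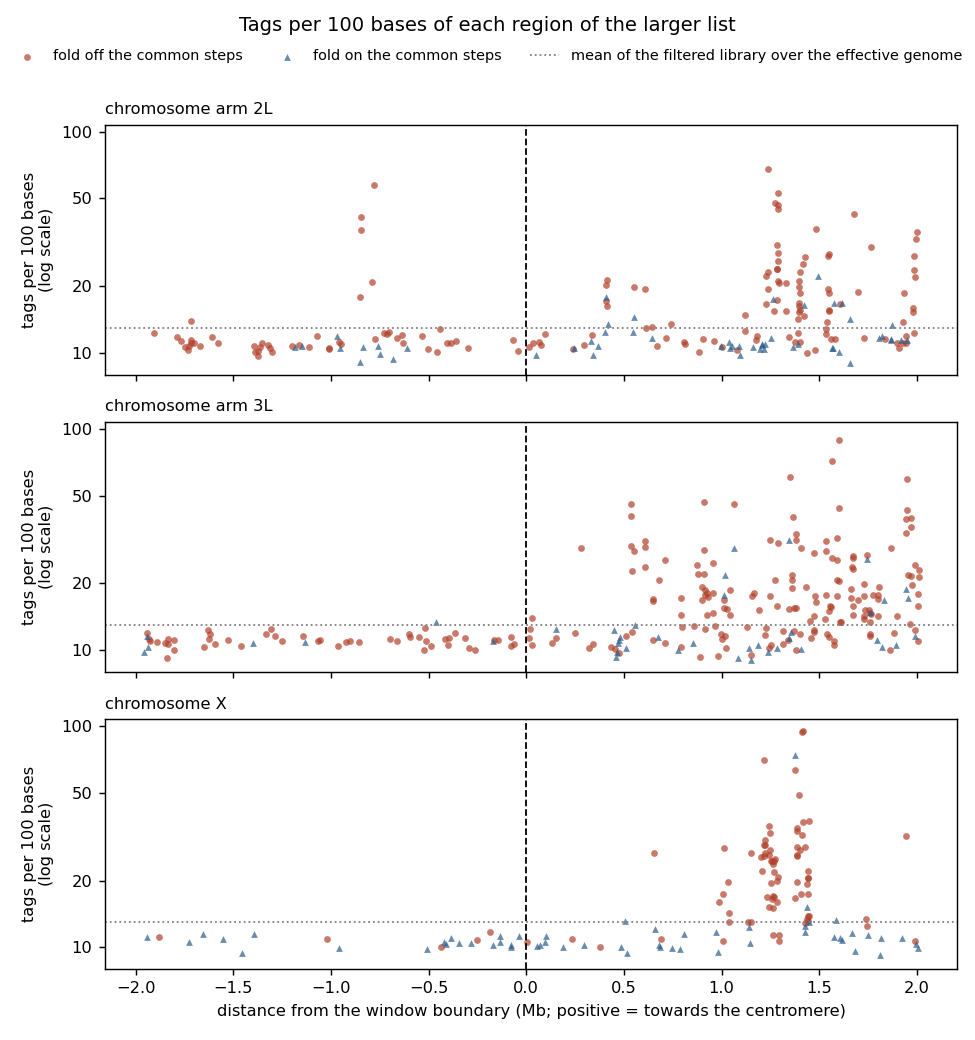
Tags per 100 bases of each region (y axis, log scale) against distance from the window boundary in Mb (x axis). Circles are regions whose fold is off the common steps, and triangles are those on them. The dotted line at 13.0 is the library's filtered tags spread over the effective genome, and its scale against region counts was not tested. Outside the windows only the neighbouring 2 Mb are shown. Tag-rich regions stand in columns inside the windows, with a further few outside on 2L. Of those shown on X nearly all lie in 1 stretch, where the 2 highest points are near 95 tags per 100 bases. Farther out, and not shown, X has 3 regions of at least 50 tags per 100 bases.

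The dense part of each window had the higher median of tags per base. On X the dense stretch had a median of 20.6 tags per 100 bases (quartiles 15.1 and 28.0), while the distal flank had 10.2 and the flank near the centromere 11.0. On 3L the dense part had 16.7 and the part before it 10.9. On 2L the dense part had 15.1 and the part before it 11.6, but within the dense part the first bin, with 22 regions, still had 11.0. The next bin of 2L, with 40 regions, had 18.0. Density and tags per base did not follow each other bin by bin on that arm, since 2 sparse bins of 12 and 10 regions had 12.9 and 13.0. Together the 463 window regions held 38770 tags, 0.249% of the filtered Deformed library, on 161.0 kb. The 10 regions with most tags accounted for 25.8% of these.

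The folds at the summit differed far less than the tags. The median fold was 4.82 in the windows (quartiles 4.20 and 5.63) and 4.48 elsewhere (4.01 and 4.99). By arm it was 4.67 and 4.41 on 2L, 5.00 and 4.48 on 3L, and 4.67 in both places on X. On X the order depended on the list: in the stricter list the window had a median fold of 4.81 and the rest of X one of 6. The 3 regions with most tags per base had low folds. The X region at 21803829 to 21804617 had 95.3 tags per 100 bases at a fold of 2.40, and the 3L region at 24101225 to 24101520 had 89.2 at 2.62. The X region at 21801725 to 21803438 had 94.0 at 2.35, the lowest fold of all window regions in the larger list.

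**Figure D3:**
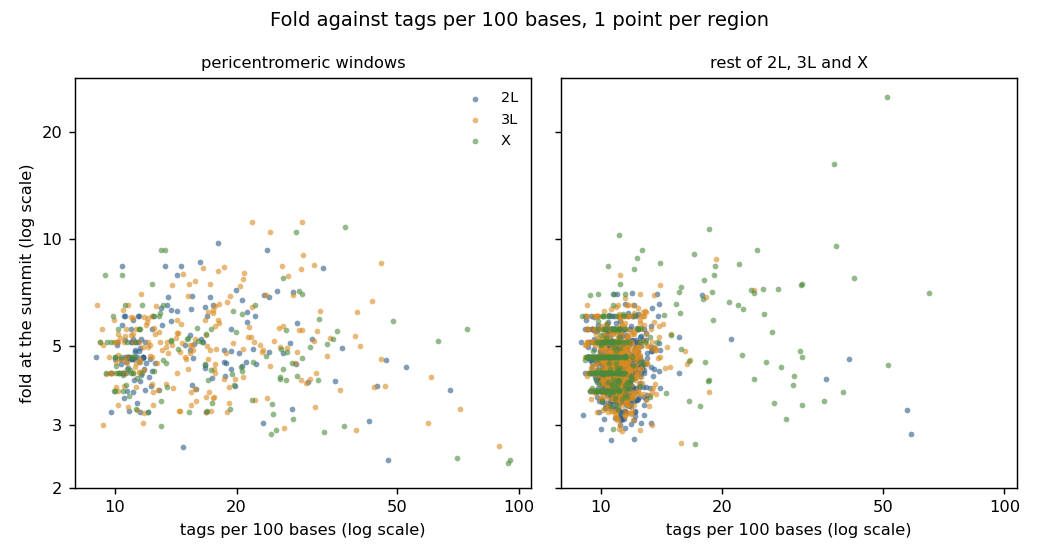
Fold at the summit (y axis, log scale) against tags per 100 bases (x axis, log scale), 1 point per region, with the pericentromeric windows on the left, the rest of the arms on the right, and colours for the arms. Window regions spread to the right at similar folds, while the others stay mostly between 9 and 13 tags per 100 bases. Rows of points at equal heights are the repeated fold values.

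The folds took a set of repeated values, and window regions were less often on them. Of all 3898 folds 1179, 30.2%, were whole multiples of 0.467 within 0.006, where folds spread evenly would match in 2.57%. The 6 most frequent folds, from 3.74 to 6.07, were 8 to 13 such steps. Whole tag counts over 1 shared background value would give such steps, but neither the summit counts nor the backgrounds are in the tables used here, so the origin of the steps was not tested and they serve only to describe the folds. In the windows 113 of 463 regions were on the steps, 24.4% (exact 95% interval 20.6 to 28.6), and elsewhere 688 of 1766, 39.0% (36.7 to 41.3). Long regions were seldom on the steps in either place. Below 150 bases the share was 38.75% in the windows and 59.9% elsewhere, and from 150 up to 200 bases 47.9% and 48.3%. From 200 up to 300 bases it was 21.9% and 27.2%. From 300 up to 500 bases it was 4.76% and 12.1%, and from 500 bases upward 5.33% and 7.41%. Window regions were longer, and how much of the difference goes with length was not tested.

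This share split X most clearly. In the dense X stretch 7 of 74 regions were on the steps, 9.46% (3.89 to 18.5), while on its distal flank 17 of 23 were, 73.9% (51.6 to 89.8), and on the flank near the centromere 12 of 16 (47.6 to 92.7). The rest of X had 60.7%, so the flanks lay near it and the stretch did not. Regions of the stretch were also longer, with a median of 352 bases against 166 on the distal flank and 185 on the other. How much of this split goes with length was not tested. On 3L the window had 16.5% of its regions on the steps and the rest 34.4%. On 2L the window and the rest were close, at 29.9% and 34.0%, with overlapping intervals. Window regions on the steps had a median of 11.0 tags per 100 bases and those off them 16.9, and elsewhere the values were 10.5 and 11.1. Control tags per region were not analysed here, and the part that local background plays in the density and the tags per base was not tested.

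Members lay close together. The median gap to the next region was 3.97 kb in the windows and 19.3 kb elsewhere. A group was counted where at least 3 regions followed each other with gaps under 10 kb. In groups were 336 of the 463 window regions, 72.6% (exact 95% interval 68.3 to 76.6), and 415 of the 1766 others, 23.5% (21.5 to 25.5). A dense window gives more groups by its density alone, and that share was not separated here. The share was 62.5% on 2L, 79.1% on 3L and 73.5% on X in the windows, and 28.0%, 25.5% and 8.81% on the rest of the same arms. All 74 regions of the dense X stretch were in groups, but only 6 of the 23 on its distal flank and 3 of the 16 on the other. The limits of the stretch were set after its density was seen, so this contrast is no separate result.

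**Figure D4:**
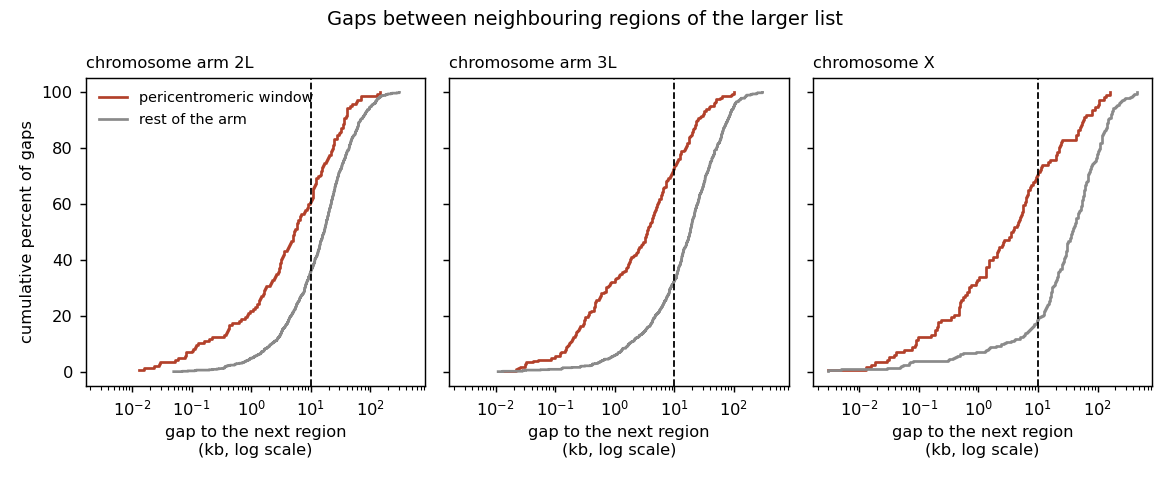
Cumulative percent of gaps (y axis) by gap length in kb (x axis, log scale) between neighbouring regions, for the windows and for the rest of each arm, with a dashed line at the 10 kb used to form groups. The window curve lies left of the other on each arm, with median gaps of 5.29 and 16.8 kb on 2L, 3.43 and 18.4 kb on 3L, and 3.67 and 37.2 kb on X.

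The windows held 51 groups, 15 on 2L, 27 on 3L and 9 on X, with a median of 5 regions and a median span of 12.5 kb. X had the fewest groups, with a median of 3 regions, but also the 2 with most regions. Its largest, from 21764581 to 21839433, held 32 regions and 6187 tags on 74.9 kb, with folds from 2.35 to 10.81. The next, from 21622270 to 21684444, held 23 regions and 3939 tags on 62.2 kb, and none of its folds was on the common steps. A group of 8 lay at 21593326 to 21610798, with a median of 27.9 tags per 100 bases and regions covering 28.2% of its bases. Most regions of the dense stretch were in these 3 groups. Its densest 50 kb bins, counted from the boundary, were 21790001 to 21840000 with 21 regions, 21640001 to 21690000 with 17 and 21590001 to 21640000 with 14.

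On 3L the groups were more numerous, with a median of 5 regions. The largest, from 23837287 to 23881911, held 16 regions and 1469 tags. One near the end of the arm, from 24440957 to 24474373, held 12 regions but 2981 tags, with a median of 27.9 tags per 100 bases. A group of 9 at 23389370 to 23415302 had a median fold of 3.86, and another of 9 at 23498901 to 23528352 had 5.04 at only 209 tags. The densest 50 kb bins of 3L began at 23850001 with 12 regions, at 24050001 with 11, and at 23400001, 23500001, 24250001 and 24450001 with 10 each.

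On 2L the median group had 4 regions. The largest, from 22534131 to 22579691, held 14 regions and 650 tags. A group of 12 at 22390666 to 22403408 and one of 11 at 22281953 to 22292272 were more compact, with regions covering 34.6% and 40.9% of their bases. The group of 11 was the richer in tags, with a median of 26.1 tags per 100 bases against 16.0. The densest 50 kb bins of 2L were 22250001 to 22300000 with 15 regions, 22350001 to 22400000 with 12 and 22200001 to 22250000 with 9.

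An FDR below 100% was given to 8 of the 463 window regions, 1.73%, and to 4 of the 1766 others, 0.227%. Of all regions of the larger list 0.539% had one. Nearly all window regions thus passed the p-value cutoff without an FDR below 100%, and as single regions they are weakly backed. All 8 lay in the dense parts, 4 of them on X, 3 on 3L and 1 on 2L. A score of at least 40 was reached by 274 of the 463, 59.2%, where 33.8% of the larger list reached it.

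The strongest region of the 3 windows by score lay near the end of 3L, at 24446202 to 24447708. It held 651 tags (exact Poisson 95% interval 602 to 703) on 1507 bases with a fold of 6.69, and the authors scored it 986.58 at an FDR of 0%. Its neighbour at 24447928 to 24449402 held more tags, 879 (822 to 939), but its fold was 3.05 and its FDR 23.08%. Close by, the region at 24445251 to 24446056 had 274 tags and a 5.29-fold summit. These 3 regions lay within 5 kb and belong to the 12-region group near the end of the arm. Further 3L regions of high score were 23849167 to 23849955, with 478 tags at 4.10-fold (FDR 66.67%), and 23036334 to 23037406, with 434 tags at 5.01. The longest on 3L, 24165508 to 24168327, ran 2820 bases with 672 tags at a fold of 3.59. The highest fold of the windows, 11.21, was shared by 2 short 3L regions, at 23565333 to 23565563 with 67 tags (51.9 to 85.1) and at 23515722 to 23515840 with 26 (17.0 to 38.1). Both folds were 24 of the common steps, and both regions had an FDR of 100%.

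On X the highest score, 717.35, belonged to the region at 21801725 to 21803438, with 1611 tags (1533 to 1692) on 1714 bases and an FDR of 0%. The region at 21803829 to 21804617, which followed it within the same group, had 752 tags (699 to 808) and was scored 427.97 (FDR 20%). The region at 21765945 to 21766394 differed from these in its fold, 5.60, with 334 tags on 450 bases and an FDR of 29.41%. That at 21631569 to 21632769 had 425 tags and a 5.51-fold summit (FDR 40%), and that at 21784019 to 21785839 held 889 tags at 5.88. The highest X fold in the window, 10.81, was at 21834483 to 21835320, with 311 tags (277 to 348). The longest X region, 21635633 to 21638465, ran 2833 bases with 932 tags, yet its fold was 2.87 and its score only 48.20. Tag number and score thus did not go together in every long region.

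The 2L window had 1 region with an FDR below 100%, at 22674531 to 22678354. It was the longest of all window regions, 3824 bases, with 1628 tags (1550 to 1709), and its summit was 3.09-fold (FDR 18.75%). In the stricter list the same place was split in 2, of which the higher-scoring, 22674531 to 22676617, had 862 tags and an FDR of 100%. The regions next in score, 22288152 to 22288876, 22236990 to 22237546 and 22285776 to 22286525, held 382, 377 and 352 tags at folds of 4.38, 3.77 and 4.57. That at 22400226 to 22401193 held 180 tags at 4.89. The highest 2L fold, 9.80, lay outside the dense part, at 21408265 to 21408542, with only 50 tags (37.1 to 65.9). It stood near the edge of the 130.6 kb stretch without regions.

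At the boundaries the regions were small on both sides. On 2L the first 3 inside had 18, 32 and 18 tags at folds of 4.52, 4.61 and 4.20, and the last 3 outside had 21, 26 and 30 tags at 3.96, 3.93 and 3.36. On 3L the first 3 inside had 37, 43 and 38 tags at 3.32, 3.43 and 3.86, and the last 3 outside 19, 38 and 19 at 4.57, 4.61 and 4.61. On X the first 3 inside had 15, 16 and 17 tags at 4.15, 4.20 and 4.20, and the last 3 outside 18, 21 and 18 at 5.14, 3.74 and 5.60.

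The stricter list held 261 regions in the same windows, 73 on 2L, 122 on 3L and 66 on X. Of the 463 window regions of the larger list 257, 55.5% (exact 95% interval 50.8 to 60.1), overlapped a stricter region, where 26.4% of all regions of the larger list did and 364 of the 1766 on the rest of these arms, 20.6%. In the dense X stretch it was 57 of 74, and on its flanks 5 of 23 and 4 of 16. In the other direction 259 of the 261 stricter window regions overlapped the larger list. An FDR below 100% was given to 8 of the 261, where 1.85% of the whole stricter list had one. The density ratios were higher in the stricter list, at 4.82 on 2L (exact 95% interval 3.60 to 6.40), 8.93 on 3L (6.98 to 11.4) and 9.32 on X (6.57 to 13.2). Both lists come from the same tags, so the stricter one shows the effect of the cutoff and is no second experiment.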

How the data were processed

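Chromatin immunoprecipitation followed by sequencing compared 1 Deformed library with 1 IgG control library. Bowtie did the alignment, per the submitters' processing notes. Neither its version nor the build is given in the sources used here. The authors called regions with MACS 1.4.0beta, per the file headers (tag size 40, fragment length 50, effective genome 120 Mb, local background over 1000 and 10000 bases). Duplicates beyond 4 Deformed and 3 control tags at 1 position were dropped, 22.7% and 2.48% of tags. The deposited tag count is a whole number per region. The deposited score is the negative log10 of the p-value multiplied by 10, the deposited fold a ratio of summit to local background, and the deposited FDR a percent. How reads that match several places were treated is not given in the sources used here, and such reads matter near centromeres.

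Positions are printed as the files give them, counted from 1. On X 71 of 2705 genes of the Release 6 table start past the last deposited region, on 3L 38 of 3482 and on 2L 11 of 3508, so that table was used for names only. Arm ends were taken as the end of the last region in either list. Regions were named by position: on each arm the 5 of highest score, the highest fold, the longest, that with most tags, those with an FDR below 100%, the 3 on each side of the boundary, the 3 largest groups and the 3 densest 50 kb bins. The regions with most tags per base were added after their values were seen, as were the fold steps. Members, rule and measures were chosen with earlier results of these data known. Intervals are exact (Clopper-Pearson for shares, Poisson for tags) at 95% and cover counting error only. Overlap meant at least 1 shared base. Functions were tested on simulated data. Scripts ran under Python 3.11.15 with scipy 1.17.1, numpy 2.4.6, matplotlib 3.10.9 and pandas 2.3.3.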

Additional observations from a re-analysis of the deposited data

How the results depend on the processing

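Of 55 values recomputed for 11 results, 21 stayed within 1.5 times a count, within the counting interval or at the same bin. The other 34 moved, and none that has a direction reversed. Member counts and the start of the dense part have no direction. The median fold was recomputed only over the 3 windows together. On X alone it was 4.81 in the window and 6 in the rest in the stricter list, against 4.67 in both in the larger list. All 18 recomputed density ratios were above 1. With regions less than 10 kb apart counted as 1, the ratios were 1.28 (2L), 1.29 (3L) and 1.30 (X). By bases covered they were 2.98, 5.13 and 6.39, for scores of at least 40 they were 4.36, 6.91 and 6.68, and in the stricter list 4.82, 8.93 and 9.32. With boundaries 500 kb nearer the centromere 3L reached 3.84. Members numbered 274 at scores of at least 40 and 261 in the stricter list. The median tags per 100 bases became 18.1 at scores of at least 40, 19.5 in the stricter list, 12.4 for regions of 100 to 400 bases and 24.1 from summed tags over summed length, against 11.5, 12.4, 10.8 and 12.5 on the rest of the arms. The median fold became 5.14 at scores of at least 40 and 5.16 in the stricter list, against 4.67 and 5.07. The grouped share was 56.2% with gaps under 5 kb, 85.3% under 20 kb, 66.8% at scores of at least 40, 65.5% in the stricter list and 67.2% with boundaries 500 kb farther out. The fold steps were an alternative set chosen after seeing the data. The share on them was 14.6% at scores of at least 40 and 12.6% in the stricter list. On the rest of the arms it was 37.2% and 36.2%. The start that the rule gives for the dense part depended on the list. At scores of at least 40 it came 0 kb inside the boundary on 2L, 250 kb on 3L and 500 kb on X. In the stricter list it came at 0 kb on 3L, from bins of 2 and 6 regions, and at 250 kb on X, from bins of 1 and 3. The stricter X bins from 1000 kb on held 20 and 37 regions. With at least 3 times the median bin the start in the larger list came at 750 kb on 3L. No 2L bin qualified together with the next, though the bin with 40 regions passed on its own. That 2L setting gave no value and is not among the 55. The cause was not tested. No paired analysis was possible because each group holds 1 library. The shallow counts limit single regions: the median window region had 34 tags.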
